A study of Homo sapiens with 42 samples.

Results

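The regions described here are the ATAC-seq regions annotated to 10 genes of the bypass receptor tyrosine kinases: the receptors MET, AXL, IGF1R, INSR, FGFR1, FGFR2, FGFR3 and FGFR4, and the ligands HGF and NRG1. They were chosen by gene symbol alone, as every region that the authors' annotated count tables give to one of these symbols, with no measured value in the choice. There were 246 such regions among 242490 annotated regions. PC9 held 54 (of 69565), H1975 86 (of 76952), HCC827 30 (of 30709) and HCC2935 76 (of 65264). ATAC-seq reads come from places where a transposase can insert its adapters, so a count measures how open the chromatin of a region is. In these pooled cells, fewer cells with an open region and a less open region in every cell cannot be told apart. IGF1R held 68 regions, MET 49, INSR 30, FGFR3 26, NRG1 24, FGFR4 18, AXL 16, FGFR1 and FGFR2 7 each, and HGF 1. FGFR2 had no region in PC9, FGFR1 none in HCC827, and HGF had its region in H1975 alone.

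PC9, H1975, HCC827 and HCC2935 are established lung adenocarcinoma lines with activating EGFR mutations. Osimertinib inhibits mutant EGFR, and AZD5153 was the other compound given. Drug-tolerant persister (DTP) cells had 500 nM osimertinib for 24 days. Controls were grown without drug for 21 days and then had DMSO for 3 days. In the combination group the cells had osimertinib for 21 days and then 150 nM AZD5153 for 3 days, and it is not stated in the labels if osimertinib stayed on in those last 3 days. A drug-naive AZD5153 group (21 days drug-free, then 150 nM AZD5153 alone for 3 days) exists for PC9 and H1975. Each of the 14 groups was 3 libraries labelled as biological triplicates of 1 line, 42 in all. The titles name ATAC-seq while the text on library preparation describes H3K27ac chromatin immunoprecipitation, and the values were read as ATAC-seq.

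Receptor tyrosine kinases bind a ligand outside the cell, pair up, and phosphorylate each other and their adaptors inside it. The Ras-MAPK and PI3K-AKT pathways that EGFR feeds are also fed by MET (the receptor of HGF), by AXL (the receptor of GAS6), by the insulin and insulin-like growth factor receptors, by the fibroblast growth factor receptors and by the ERBB3-ERBB2 pair that NRG1 engages. A cell that keeps these pathways active through such a receptor can survive an EGFR inhibitor, which is why they are called bypass receptors. MET amplification and AXL expression are textbook examples in EGFR-mutant lung cancer.

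Library totals over all regions of the count tables ran from 3989287 to 5193390 counts for PC9, from 6200672 to 10062505 for H1975, from 1724680 to 4242868 for HCC827 and from 3968690 to 8066287 for HCC2935. Values are given as CPM, the count of a region relative to its library total, with totals scaled by the trimmed mean of M-values within each line, so levels are compared within a line. Every region was 502 bp wide, which makes levels comparable per length. The biological coefficient of variation was 0.988% for PC9, 3.19% for H1975, 10.1% for HCC2935 and 44.9% for HCC827. In PC9 and H1975 the libraries of a group agreed almost to counting noise, so p-values there measure little more than that noise. Beside them stand values from groups added up to 1 sample each and tested with the dispersion of HCC2935, here called the summed test. That dispersion (0.0102) is below the one of HCC827 (0.201), so for HCC827 the summed test is lenient and not a stricter check. Promoters of 6 of 6 epithelial markers were open in every line, with sums of 319 to 476 CPM, against 0 to 20.2 CPM for 0 to 2 of 4 blood markers. The other lists had sums of 18.8 to 55.5 CPM for lung lineage (2 or 3 of 3 markers open), 4.70 to 21.8 for endothelial markers (1 or 2 of 2) and 23.4 to 43.9 for fibroblast markers (1 or 2 of 3). In H1975 COL1A1, a fibroblast marker, was at 38.6 CPM, above KRT18 (21.7), KRT19 (31.8) and EPCAM (34.0). The part of this in the results was not tested.

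The promoters shown are those whose start regions are compared most in the results, which are MET, FGFR4 and AXL. The MET RefSeq start did not fall in H1975 while regions inside the gene did. At FGFR4 a region over the start fell in H1975, while the adjoining region over most of the printed window was not called. The regions of the AXL starts moved differently from each other. The sequences are the 250 bases before the RefSeq start (GRCh38.p14, 5′ to 3′, plus strand). Capitals mark motif letters searched on both strands, which were GGGCGG (SP1), CCGGAA (ETS), CATTCC (TEAD), TGANTCA (AP-1) and TGACGTCA (CRE).
MET chr7:116671946-116672195: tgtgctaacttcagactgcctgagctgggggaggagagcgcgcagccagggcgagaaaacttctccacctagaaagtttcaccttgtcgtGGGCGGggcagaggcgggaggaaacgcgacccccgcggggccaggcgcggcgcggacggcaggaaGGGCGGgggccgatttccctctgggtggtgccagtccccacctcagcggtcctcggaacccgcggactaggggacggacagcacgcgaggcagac
FGFR4 chr5:177086665-177086914: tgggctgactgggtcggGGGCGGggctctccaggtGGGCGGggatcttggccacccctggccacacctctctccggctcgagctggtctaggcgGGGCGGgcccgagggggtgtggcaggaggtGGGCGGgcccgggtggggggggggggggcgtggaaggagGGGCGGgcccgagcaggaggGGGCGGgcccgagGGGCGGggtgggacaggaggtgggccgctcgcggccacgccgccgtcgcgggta
AXL upstream start chr19:41218973-41219222: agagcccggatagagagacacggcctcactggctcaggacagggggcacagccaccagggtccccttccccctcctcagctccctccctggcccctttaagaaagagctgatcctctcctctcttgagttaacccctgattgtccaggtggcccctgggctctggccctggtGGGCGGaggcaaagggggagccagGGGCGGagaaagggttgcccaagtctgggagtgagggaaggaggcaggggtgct
AXL downstream start chr19:41226505-41226754: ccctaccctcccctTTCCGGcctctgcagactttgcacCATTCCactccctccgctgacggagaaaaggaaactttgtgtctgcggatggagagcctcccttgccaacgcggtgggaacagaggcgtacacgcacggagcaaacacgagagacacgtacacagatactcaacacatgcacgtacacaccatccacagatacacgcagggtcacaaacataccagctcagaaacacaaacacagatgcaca
GGGCGG, the core of the GC box, was found 2 times in the MET window and 7 times in that of FGFR4, and 42.6% of 35116 RefSeq promoters held at least 1. The upstream AXL window also held it, while the downstream AXL window held the ETS letters on its minus strand and CATTCC, which 14.5% and 11.9% of promoters held. None of these windows held TGANTCA, found in 6.57% of promoters, or TGACGTCA, found in 1.65%. A match is a description of letters in the window and not of a bound factor.

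The first comparison asks which bypass receptor regions differ in cells that survived osimertinib. Regions were tested with edgeR's quasi-likelihood test on all regions of each line, and a region was called when its Benjamini-Hochberg adjusted p was under 0.05. In H1975, 49 of 86 regions were called in DTP cells, 35 lower and 14 higher, where 51.8% of all tested regions were called (27% lower and 24.8% higher). HCC2935 had 35 of 76 called, 19 lower and 16 higher, against 37.4% (19% lower and 18.4% higher). PC9 had 17 of 54 called, 10 lower and 7 higher, against 31.8% (16.3% lower and 15.5% higher). The member shares of 57.0%, 46.1% and 31.5% thus lay close to the share of all regions. Regions beyond the promoter class were called more often over the whole annotated set (71% in H1975, 52.4% in HCC2935 and 47.1% in PC9), and the members are mostly of this kind. HCC827 had 0 of 30 called against 0.0267% of all regions by edgeR. There 3 regions had an unadjusted p under 0.05, DESeq2 called 0, and 1 was called with the replicate number as a block. The replicate numbers were taken to pair the HCC827 libraries, while the edgeR count of 0 is from the fit without that pairing. No share of all regions is given here for the block.

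The median log2 change of the member regions was -0.02 for PC9, -0.13 for both H1975 and HCC827, and 0.11 for HCC2935, so the groups as wholes hardly moved while a single region fell by 4.96 on the log2 scale. For PC9, H1975, HCC827 and HCC2935 the summed test called 5, 34, 4 and 28 member regions, against 19.5%, 40.3%, 12.5% and 32.8% of all regions. Without control replicate 2 the PC9 count was 10. In HCC2935, 9 of 25 promoter regions rose and 2 fell, where 20.8% of all annotated promoter regions rose and 15.3% fell. Of 51 other regions there, 7 rose and 17 fell, where 25.5% and 26.9% of all such regions did. In H1975, 4 of 34 promoter regions rose and 14 fell, against 26% and 27%, and 10 of 52 others rose and 21 fell, against 25.5% and 45.5%.

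**Figure D1:**
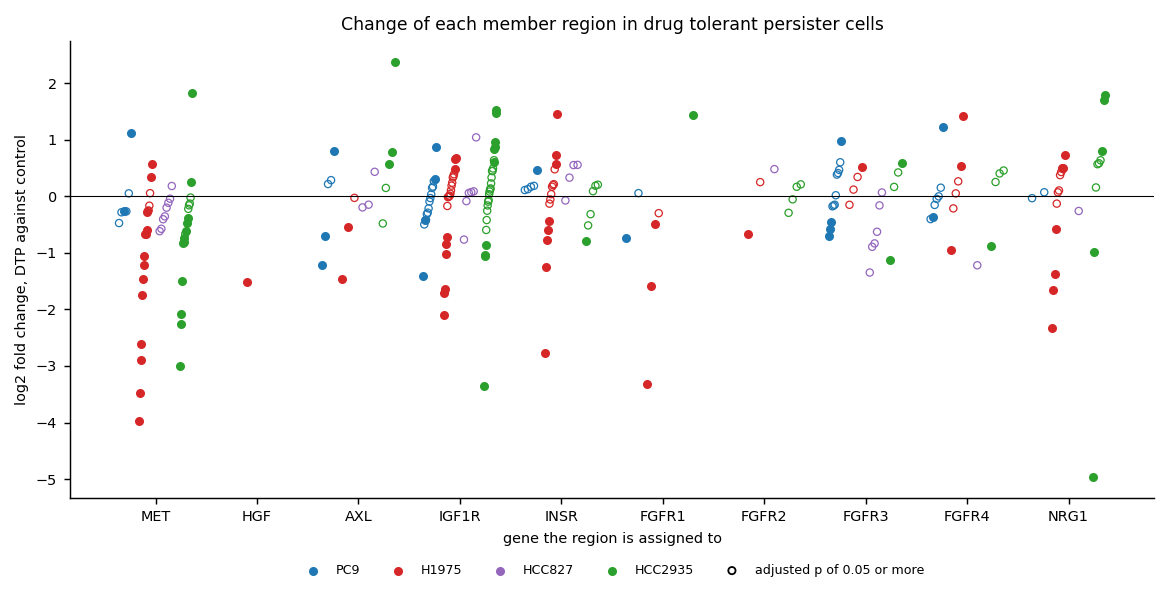
Log2 fold change of DTP against control (y) for every member region, by gene (x), with 1 colour for each line. Filled points had an adjusted p under 0.05 and open points did not. MET and IGF1R spread to both sides of 0, and in HCC827 every point is open.

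MET, the receptor of HGF, lost accessibility inside the gene in DTP cells of H1975 and HCC2935. In H1975, 12 of its 18 regions fell and 2 rose, and in HCC2935 10 of 17 fell and 2 rose, where 27% and 19% of all regions fell, and 45.5% and 26.9% of the annotated regions outside the promoter class. The regions that fell lay from 2.47 to 115 kb downstream of the start in H1975 and from 2.82 to 115 kb in HCC2935. In the summed test 10 of the 12 and 7 of the 10 were called. PC9 had 1 of 6 regions lower and 1 higher, where 16.3% and 15.5% of all regions were. HCC827 had 0 of 8 called, where 0.0267% of all regions were.

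The H1975 region at the RefSeq start of MET did not fall. This region (chr7:116671669-116672170), chosen after its values were seen, was at 28.6, 29.2 and 29.2 CPM in the control libraries and 36.3, 36.2 and 37.7 in DTP. Every DTP library was above every control library, and the log2 change was 0.34 (SE 0.077, edgeR adjusted p = 6.14e-05). The call was lost in the summed test (adjusted p = 0.243) and when the median change of the surrounding 10 Mb was subtracted (0.11, adjusted p = 0.274). In HCC2935 the start region had 30.9, 31.4 and 30.0 CPM in control and 26.1, 26.1 and 27.0 in DTP, a log2 change of -0.22 that was not called (adjusted p = 0.146). PC9 had 30.8, 30.0 and 30.0 against 27.6, 23.6 and 23.9 (log2 change -0.27, adjusted p = 0.0311), a call that the summed test did not keep (0.448). In HCC827 the control libraries, at 31.0, 22.7 and 43.7, spread wider than their distance from the DTP libraries at 24.4, 25.6 and 26.3. A second promoter-class region of H1975, over an annotated start inside the gene (chr7:116723762-116724263), fell from 6.78, 5.05 and 6.51 CPM to 4.57, 3.95 and 3.59 (-0.60, adjusted p = 0.00296), a call that the summed test did not keep (0.0582).

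Inside MET the largest fall was at chr7:116737237-116737738, in an intron of the gene 65.3 kb from the start in H1975. Control libraries had 10.1, 8.89 and 8.19 CPM and DTP libraries 0.343, 0.304 and 0.999, near closed. The log2 change was -3.98 (SE 0.27, adjusted p = 2.45e-33, summed 5.46e-27). The window at the same place in HCC2935 fell by 0.73 on the log2 scale, and a joint test over the lines of matched windows found that the DTP change differed between lines (adjusted p = 5.01e-08, log2 changes 3.30 for PC9, -3.90 for H1975, 1.48 for HCC827 and -0.79 for HCC2935). The PC9 and HCC827 tables do not give that window to MET, and its levels there are not given here.

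Regions in intron 2 of MET, picked after their values were seen, show the same unevenness. A window at chr7:116711016-116711517 in H1975 fell from 6.64, 6.85 and 4.58 CPM to 0.114, 0.709 and 0.699 (log2 change -3.48, SE 0.31, adjusted p = 2.39e-22). Its counterpart at chr7:116711041-116711542 in HCC2935 fell from 16.8, 16.5 and 11.6 to 4.43, 5.38 and 6.15 (-1.5, SE 0.21, adjusted p = 1.37e-07). Both lines lost openness there with no overlap of the groups. At the next strong window the lines parted. H1975 had 49.9, 54.8 and 54.4 CPM in DTP against 50.9, 53.5 and 49.0 in control, while HCC2935 went from 28.9, 22.0 and 24.2 to 7.27, 6.07 and 4.53 (-2.07, SE 0.19, adjusted p = 1.74e-12). The joint test gave an adjusted p of 2.44e-10 for that window.

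In the 3′ part of MET some regions rose and others fell. PC9 gained at chr7:116780853-116781354, from 8.65, 9.33 and 7.94 CPM to 16.9, 20.7 and 19.1 (log2 change 1.13, SE 0.15, adjusted p = 7.68e-12, summed 0.000288). In HCC2935 the window at chr7:116782361-116782862, chosen after its values were seen, went from 1.3, 1.75 and 3.68 to 9.49, 6.9 and 6.47 (1.82, SE 0.32, adjusted p = 1.29e-05). H1975 had 29.9, 33.3 and 25.1 CPM at chr7:116781010-116781511 in control and 22.4, 23.9 and 26.1 in DTP, a fall of 0.28 on the log2 scale that the summed test did not keep (adjusted p = 0.288). Farther along, windows picked after their values were seen fell in H1975 and HCC2935. H1975 (chr7:116786680-116787181) went from 14.5, 14.1 and 15.9 to 8.92, 6.28 and 6.29 (-1.06, SE 0.13, adjusted p = 1.79e-13), and HCC2935 (chr7:116786837-116787338) from 6.66, 8.24 and 8.16 to 4.59, 4.42 and 3.88 (-0.82, SE 0.24, adjusted p = 0.00557).

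**Figure D2:**
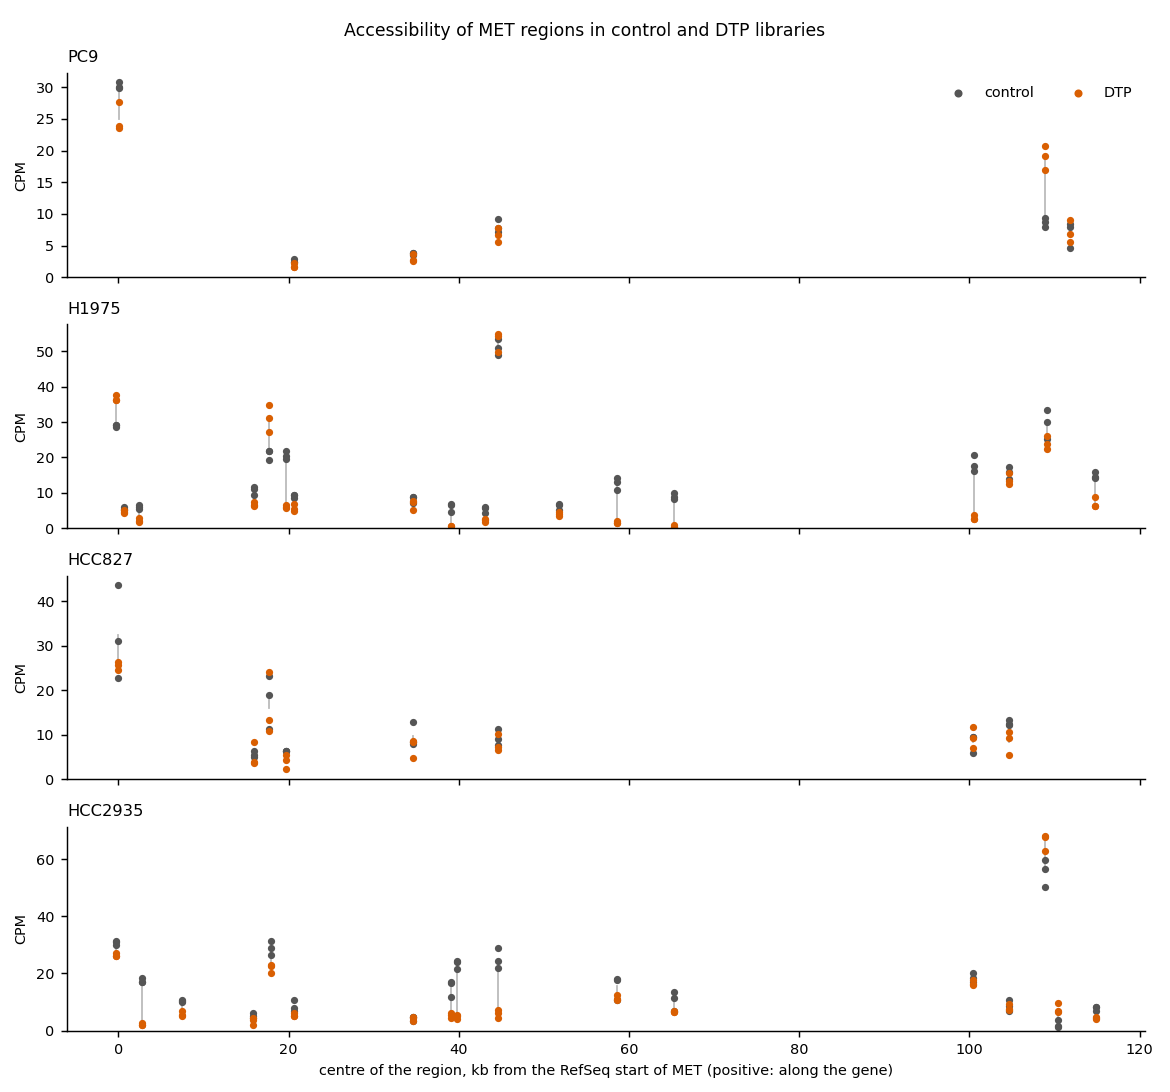
CPM (y) of each control library (grey) and DTP library (orange) in every MET region, by kilobases of the region's centre from the RefSeq start (x, positive along the gene), with 1 panel for each line and grey lines joining group means. In H1975 and HCC2935, where 12 and 10 regions were called lower, many DTP points inside the gene lie below the control points.

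IGF1R and INSR, the receptors of insulin-like growth factors and insulin, changed region by region. IGF1R had 9 of 21 regions called in H1975 DTP cells (3 higher), 10 of 26 in HCC2935 (6 higher) and 4 of 15 in PC9 (2 higher), where 51.8%, 37.4% and 31.8% of all regions were called, and 0 of 6 in HCC827. A window in the promoter class, beside an annotated start far inside the gene, was called in the same direction in 3 lines. In PC9 (chr15:98888836-98889337) it went from 3.81, 2.23 and 2.78 CPM to 5.45, 4.55 and 5.82 (log2 change 0.87, SE 0.27, adjusted p = 0.00675, summed 0.058). In H1975 it went from 4.7, 4.57 and 4.7 to 7.2, 6.79 and 8.29 (0.68, SE 0.17, adjusted p = 0.000239), and in HCC2935 from 7.59, 10.7 and 3.42 to 14.4, 11.5 and 17.3 (0.96, SE 0.22, adjusted p = 0.000513). The DTP libraries of all 3 lines lay above their controls, and the joint fit gave a log2 change of 1.05 in HCC827, with no difference found between lines (adjusted p = 0.94). The HCC827 table does not give that window to IGF1R.

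A window in the second IGF1R intron fell in PC9 and H1975. PC9 (chr15:98803156-98803657) went from 12, 10.8 and 11.5 CPM to 3.11, 5.38 and 4.42 (log2 change -1.40, SE 0.2, adjusted p = 2.53e-10). H1975, in the overlapping window, went from 12.2, 12.5 and 11.9 to 5.26, 5.68 and 6.99 (-1.02, SE 0.14, adjusted p = 3.64e-11). The groups did not overlap in either line. HCC827 had 7.84, 4.39 and 7.63 against 3.23, 3.27 and 4.94 (-0.77, adjusted p = 0.973), and HCC2935 7.77, 4.99 and 10.0 against 6.8, 6.49 and 3.56 (-0.42, adjusted p = 0.185). A second intronic window, picked after its values were seen, fell in HCC2935 from 20.5, 17 and 8.42 CPM to 1.42, 1.52 and 1.62 (-3.35, SE 0.29, adjusted p = 5.3e-13) and in H1975 from 4.43, 5.05 and 5.06 to 1.26, 1.42 and 0.699 (-2.11, SE 0.27, adjusted p = 1.53e-12).

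The IGF1R region that overlaps an annotated start inside the gene, 249 kb from the RefSeq start (chr15:98896925-98897426), fell in H1975 alone among the lines that had it in their tables. Controls there had 19.2, 20.2 and 18.4 CPM and DTP libraries 5.03, 6.79 and 5.69 (log2 change -1.71, SE 0.13, adjusted p = 6.21e-30). PC9 had 14.5, 12.2 and 11.3 against 11.5, 13.0 and 12.2, and HCC2935 20.5, 18 and 17.4 against 24.2, 20.4 and 16.5, with overlapping groups in both. The HCC827 region nearest a start lay elsewhere in the gene (chr15:98873775-98874276) and had 5.96, 7.58 and 6.32 against 6.0, 7.08 and 7.64 (0.07, not called). The joint test of the window 249 kb from the RefSeq start gave an adjusted p of 1.9e-07 for the difference between lines. In HCC2935 a region chosen after its values were seen, at 3.7, 3.74 and 8.16 CPM in control, had 14.9, 12.7 and 16.2 in DTP (1.53, adjusted p = 3.13e-07), the largest rise of IGF1R in that line.

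**Figure D3:**
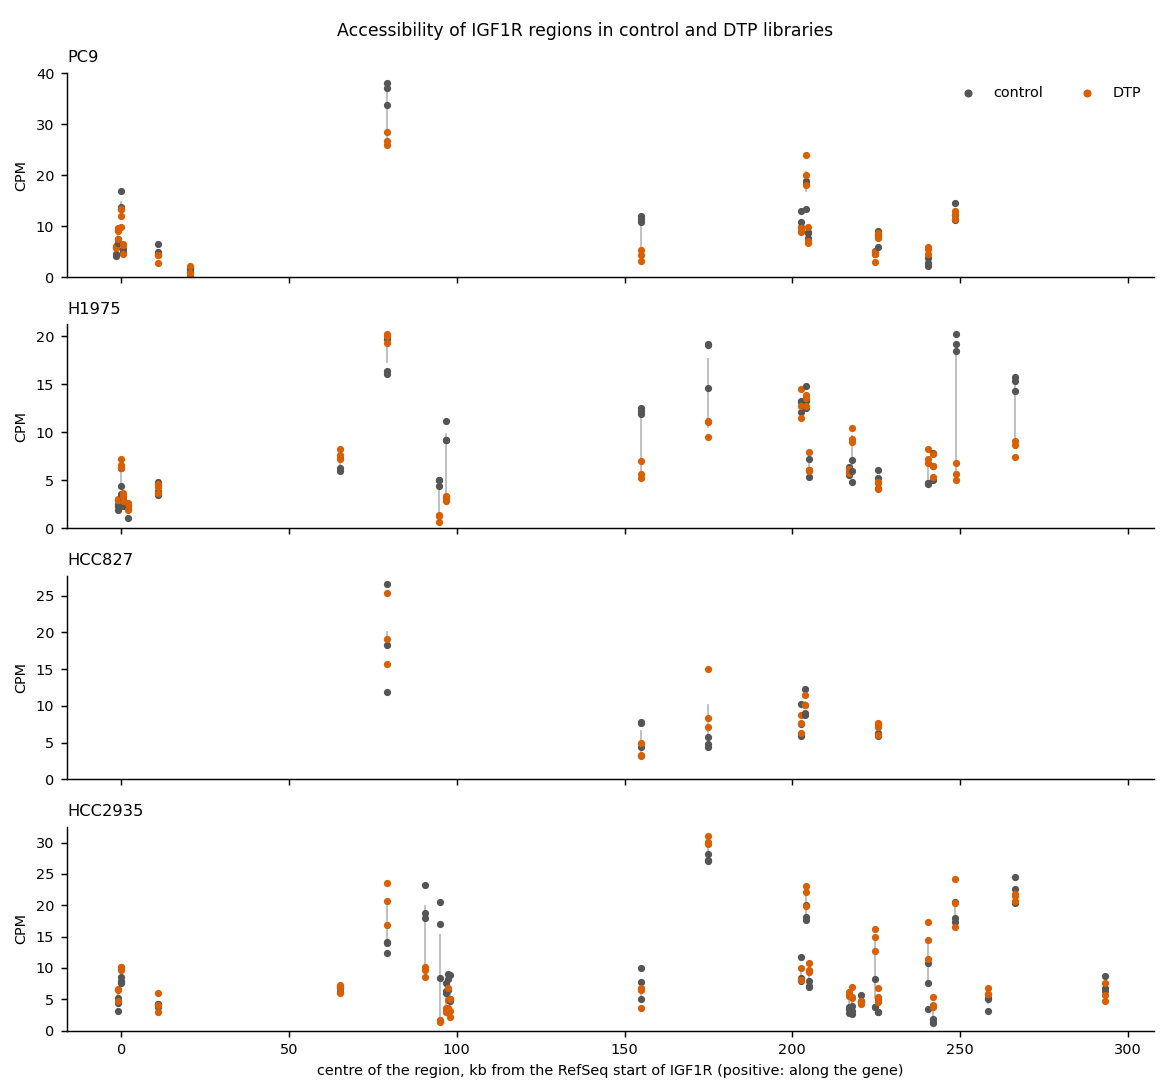
CPM (y) of each control library (grey) and DTP library (orange) in every IGF1R region, by kilobases of the region's centre from the RefSeq start (x, positive along the gene), with 1 panel for each line and grey lines joining group means. Falls and rises stand side by side along the gene.

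The INSR region nearest a start was not called in DTP cells of any line. The control and DTP libraries had 8.14, 8.32 and 6.95 against 9.93, 7.66 and 8.83 CPM in PC9, 13.7, 12.6 and 11.9 against 15.2, 11.1 and 13.0 in H1975, and 8.14, 12.7 and 6.31 against 9.33, 10.6 and 10.8 in HCC2935. HCC827 had 11, 7.98 and 13.4 against 8.77, 8.71 and 13.0. These groups overlap in all 4 lines. Inside the gene, H1975 had 5 of 15 regions lower and 3 higher, where 27% of all tested regions were lower and 24.8% higher. The region annotated as 3′ UTR (chr19:7159448-7159949) lay 135 kb from the RefSeq start of INSR, with other INSR regions farther along, at 153 and 159 kb. It rose from 0.692, 0.961 and 1.2 CPM to 2.06, 3.75 and 2.1 (log2 change 1.45, SE 0.32, adjusted p = 3.34e-05). A promoter-class region inside the gene (chr19:7141572-7142073), chosen after its values were seen, fell from 14.7, 13.2 and 9.16 to 1.72, 2.13 and 1.5 (-2.77, SE 0.19, adjusted p = 1.33e-33).

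AXL, the receptor of GAS6 linked to mesenchymal and drug-tolerant states, had all of its 16 regions in the promoter class. A window upstream of its downstream start, chosen after its values were seen, fell in 2 lines. PC9 (chr19:41225589-41226090) went from 12.5, 12.2 and 9.13 CPM to 5.26, 4.35 and 4.82 (log2 change -1.21, SE 0.2, adjusted p = 3.24e-08), and H1975 from 11.9, 10.8 and 11.1 to 3.09, 5.07 and 3.89 (-1.47, SE 0.16, adjusted p = 7.55e-17). HCC827 had 11.9, 7.58 and 15.5 against 9.69, 8.71 and 13.0, and HCC2935 11.1, 6.99 and 19.7 against 15.0, 14.4 and 11.8, where the groups overlapped. The change differed between the lines in the joint test (adjusted p = 0.000304).

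A region beside the upstream AXL start rose in HCC2935. This region at chr19:41218447-41218948, which ends just before the upstream promoter sequence printed above, rose from 1.3, 1.75 and 1.32 CPM to 6.96, 5.66 and 10.4 (log2 change 2.38, SE 0.33, adjusted p = 1.05e-07). The next region, which begins just past that start, had 5.37, 3.74 and 5.26 against 2.85, 2.76 and 4.85 and was not called (-0.48, adjusted p = 0.185). The PC9 region over that start, chosen after its values were seen, had 3.81, 3.04 and 4.76 against 7.2, 5.38 and 7.83 (0.81, adjusted p = 0.00355, summed 0.0559). At the downstream start or just before it, H1975 had 3.87, 5.41 and 4.46 against 2.29, 3.95 and 3.1 (-0.55, adjusted p = 0.0192, summed 0.104), PC9 5.34, 6.09 and 5.75 against 7.79, 5.38 and 6.83 (0.22, adjusted p = 0.475), and HCC827 11.3, 11.6 and 12.6 against 8.77, 10.9 and 11.2 (-0.20, not called). The HCC2935 window there (chr19:41226039-41226540), chosen after its values were seen, went the other way from H1975, with 8.14, 4.99 and 12.4 against 11.7, 12.8 and 13.1 (0.57, adjusted p = 0.026). The groups overlapped there, and the summed test did not keep the call (0.0603).

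The FGF receptors showed few changes in common. FGFR4, the receptor that FGF19 activates, lost accessibility at its start in H1975, where 10.2, 10.8 and 10.2 CPM fell to 3.32, 5.57 and 6.99 (chr5:177086860-177087361, log2 change -0.96, SE 0.15, adjusted p = 1.27e-08, summed 0.000581). The adjoining H1975 region (chr5:177086359-177086860), which covers most of the FGFR4 sequence printed above, was not called (-0.21, edgeR adjusted p = 0.292). The PC9 and HCC2935 windows given below overlap this adjoining region more than the one that fell. In HCC827 every DTP library (10.6, 12 and 13.9) was below every control library (21.6, 27.9 and 36.1). That difference, -1.22 with SE 0.43, missed the threshold (adjusted p = 0.449) but passed it with the replicate number as a block (-1.24, adjusted p = 0.0147). It also passed in the summed test, which is lenient for HCC827. The share of all regions that passed with the block is not given here, so the block call has no background beside it. PC9 had 16.8, 19.5 and 18.3 against 12.3, 12.6 and 17.5 (-0.37, adjusted p = 0.0216, summed 0.298), and HCC2935 6.11, 5.74 and 6.31 against 7.75, 8.15 and 9.06 (0.46, adjusted p = 0.111).

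A distal FGFR4 region, picked after its values were seen, rose in H1975 from 1.52, 2.04 and 1.08 CPM to 4.0, 3.45 and 4.99 (log2 change 1.41, SE 0.25, adjusted p = 4.24e-07). Its overlapping window in PC9 rose from 1.27, 0.406 and 1.19 to 1.56, 2.07 and 3.01 (1.22, adjusted p = 0.0239). The levels were low in both lines, and the summed test called the H1975 rise alone.

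FGFR2 lost accessibility at its start (chr10:121598268-121598769) in H1975, from 14.4, 16.1 and 11.3 CPM to 8.69, 9.22 and 8.49 (log2 change -0.66, SE 0.12, adjusted p = 1.35e-06, summed 0.0138). HCC827 had 5.01, 6.38 and 9.48 against 7.84, 10.3 and 11, and HCC2935 13.1, 18 and 13.9 against 11.7, 16 and 15.2, and neither was called. FGFR1 lost openness in H1975 at 3 of 4 regions, all in the promoter class, where 9704 of 35918 annotated promoter regions fell. The largest FGFR1 fall, at a region chosen after its values were seen (chr8:38455966-38456467), was from 5.81, 7.21 and 6.14 CPM to 0.801, 0.912 and 0.2 (-3.32, SE 0.28, adjusted p = 2.33e-24). The FGFR1 start rose in HCC2935 from 1.67, 1.25 and 2.37 to 4.9, 4.69 and 4.69 (1.44, SE 0.33, adjusted p = 0.000528, and 0.96 with the regional median removed), while PC9 had 9.92, 11.8 and 7.74 against 10.1, 7.45 and 12.9 and H1975 7.19, 6.85 and 6.51 against 5.15, 5.37 and 6.09, neither called.

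The FGFR3 start was called in HCC2935 and in no other line, from 5.92, 5.99 and 4.74 CPM to 6.64, 9.11 and 9.38 (log2 change 0.58, adjusted p = 0.0354), a call lost in the summed test (0.0852) and with the regional median removed (0.228). PC9 had 9.41, 13.2 and 11.9 against 11.3, 10.6 and 9.64, and H1975 3.6, 4.45 and 3.98 against 5.49, 4.05 and 5.79. In HCC827 the FGFR3 region nearest a start spread from 2.11 to 8.15 in control and from 0.674 to 8.16 in DTP. The strongest FGFR3 element was an intergenic region in PC9 (chr4:1777913-1778414), which fell in DTP from 16.3, 18.9 and 18.9 to 12.8, 12.4 and 14.3 (-0.46, adjusted p = 0.00411, summed 0.181).

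The ligand HGF, which activates MET, had a single region, in H1975, at -88315 bp from the annotated start, upstream of it (chr7:81858753-81859254). It fell from 14.7, 13.7 and 13.9 CPM to 3.55, 4.76 and 6.29 in DTP cells (log2 change -1.51, SE 0.14, adjusted p = 1.64e-20). The matched window, which the other tables do not give to HGF, changed by 1.09 in PC9, -0.27 in HCC827 and -0.41 in HCC2935 (joint test, adjusted p = 0.000163).

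NRG1, the ligand of ERBB3 and ERBB4, had its region nearest a start at an annotated start inside the gene. That region was not called in 3 lines. PC9 had 4.83, 2.43 and 4.56 CPM against 4.67, 4.35 and 3.21 in DTP, H1975 9.54, 9.25 and 6.99 against 8.35, 10.3 and 8.79, and HCC827 6.58, 7.18 and 12.9 against 7.38, 3.81 and 10.6, with overlapping groups and no call. HCC2935 rose from 2.41, 4.99 and 3.95 to 4.9, 7.87 and 6.15 (log2 change 0.79, adjusted p = 0.0208), a call lost with the regional median removed (0.32, adjusted p = 0.407). The other regions within 5 Mb of NRG1 had a median change of 0.43.

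The largest change among all members in DTP cells was in the first NRG1 intron of HCC2935. At chr8:31690059-31690560 the controls had 10.7, 6.74 and 7.63 CPM and the DTP libraries 0.158, 0.414 and 0.162 (log2 change -4.96, SE 0.42, adjusted p = 4.78e-13). Then 2 regions of a later NRG1 intron, picked after their values were seen, rose in the same cells, from 2.22, 2.0 and 2.1 to 9.33, 6.07 and 5.34 (1.69, adjusted p = 1.87e-05) and from 1.48, 0.998 and 0.526 to 4.11, 4.0 and 2.91 (1.79, adjusted p = 0.000501). H1975 lost another intronic region, chosen in the same way, from 4.29, 4.93 and 4.1 to 1.37, 0.203 and 1.1 (-2.33, adjusted p = 1.26e-12), and the overlapping window in HCC2935 changed by 0.16 (adjusted p = 0.68). The joint test of that window gave an adjusted p of 0.0001.

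Counts were also added over all regions of a gene and tested over all genes of a line. In H1975 DTP cells 7 of the 10 gene sums fell and 0 rose, where 66.7% of all gene sums were called. Without their highest regions AXL was at -0.33 (edgeR adjusted p = 0.0543) and FGFR2 at 0.25 (0.348), while MET, FGFR1, IGF1R and INSR kept their call. With regional medians removed INSR lost its call (-0.09, edgeR adjusted p = 0.236) and the other fallen sums kept theirs. MET fell from 284.5, 281.7 and 268.7 CPM to 200.6, 218.3 and 211.3 (log2 change -0.40, SE 0.0416, adjusted p = 3.02e-17), AXL from 18.8, 19.0 and 18.3 to 8.1, 11.5 and 10.2 (-0.90, SE 0.113, adjusted p = 1.01e-12), FGFR1 by 1.13 and HGF by 1.51 on the log2 scale. AXL, FGFR1 and HGF kept their call in the summed test, while MET did not (0.117). In HCC2935, against 49.1% of all sums, MET fell from 298.3, 281.8 and 281.7 to 215.7, 199.5 and 202.3 (-0.48, SE 0.071, adjusted p = 2.47e-07), and AXL (0.49, SE 0.135, adjusted p = 0.00213) and FGFR1 (1.44, adjusted p = 0.000202) rose. The summed test kept FGFR1 alone (MET 0.0953, AXL 0.0725).

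PC9 gene sums were called for INSR (0.27, adjusted p = 0.00129) and IGF1R (-0.16, adjusted p = 0.00291), against 42.2% of all sums, and the summed test called 0. Without DTP replicate 3 the PC9 count was 4. HCC827 had 0 called against 0.844%, with FGFR4 at -1.22 (edgeR adjusted p = 0.191). With the replicate number as a block FGFR4 was at -1.25 (edgeR adjusted p = 0.000127), and the share of all gene sums called with the block is not given here. The summed test, lenient for HCC827, called FGFR4 as well. Without combination replicate 3 the HCC827 count was 1. MET in PC9 was between 59.0 and 61.0 CPM in control and 60.2 and 66.6 in DTP.

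The regions around a gene also moved. In H1975 DTP cells the other regions within 5 Mb of MET had a median log2 change of 0.26, opposite in sign to the MET sum, which was at -0.63 with the regional median removed. For FGFR1 in HCC2935 the flanks were at 0.56 and the change left was 0.97. The part of such wider changes in these values was not tested.

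**Figure D4:**
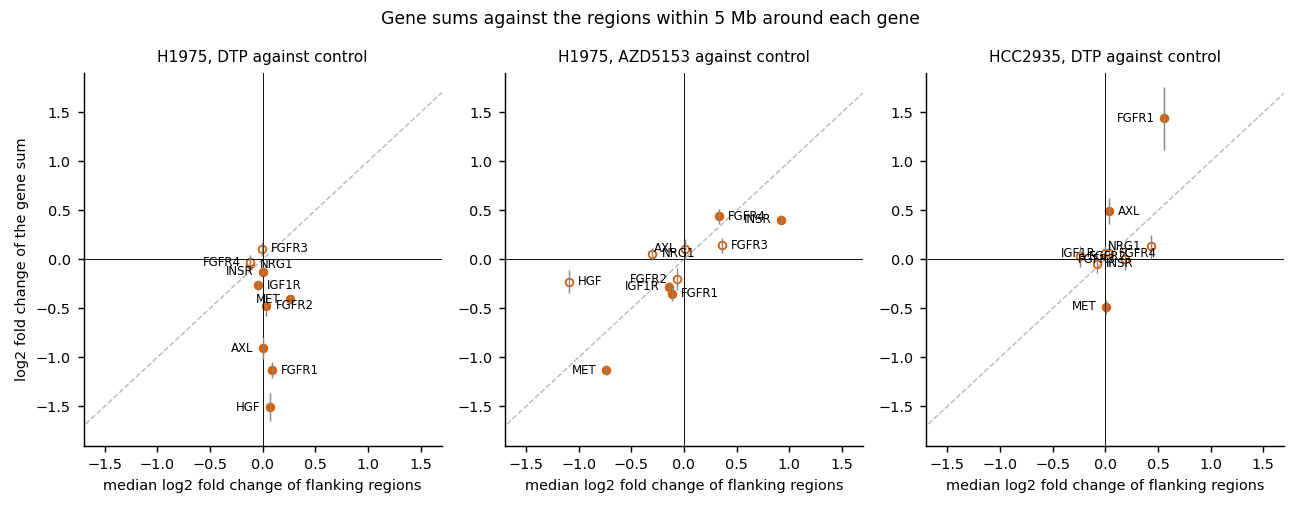
Log2 fold change of each member's summed counts (y, with SE bars) against the median log2 fold change of the other regions within 5 Mb (x) in H1975 DTP cells, H1975 AZD5153 cells and HCC2935 DTP cells. The dashed line marks equal change, and filled points had an adjusted p under 0.05. MET lies below the line in all 3 panels.

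AZD5153 alone, tested in drug-naive PC9 and H1975, asks what this compound does without osimertinib. In H1975, 65 of 86 regions were called, 34 lower and 31 higher, where 58.1% of all regions were called (31.4% lower and 26.7% higher). The summed test called 50 (48.3% of all regions). PC9 had 17 of 54 called, 11 higher and 6 lower, against 25.8% (11.3% higher and 14.5% lower). The PC9 count was 7 in the summed test (14.1% of all regions) and 11 without control replicate 3. The H1975 AZD5153 group correlated less with its own controls (r = 0.808 over 82776 matched regions) than the DTP (0.855) and combination (0.842) groups did, and its r with HCC827 controls was 0.743 and with PC9 controls 0.692. These correlations describe group means that share the same matched windows.

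MET fell with AZD5153 in H1975 at 14 of 18 regions, 12 of them outside the promoter class, where 55.2% of all annotated regions of that kind fell. Its gene sum, where 76.1% of all sums were called, fell from 284.5, 281.7 and 268.7 CPM to 129.5, 129.4 and 122.6 (log2 change -1.13, against -0.74 for the flanking regions and -0.49 with the regional median removed). The region near its 3′ end at chr7:116781010-116781511 went from 29.9, 33.3 and 25.1 CPM to 1.04, 0.778 and 0.714 (-5.10, SE 0.18, adjusted p = 1.14e-72). The AZD5153 libraries were all near 1 CPM, and the change was -4.47 with the regional median removed. The RefSeq start of MET had 31.6, 29.9 and 29.4. In PC9 a MET region close by (chr7:116783717-116784218) went from 7.88, 4.67 and 8.33 to 0.384, 0.743 and 0.188 (-3.90, SE 0.38, adjusted p = 1.01e-20), while an intronic region at chr7:116706536-116707037 rose from 3.81, 3.45 and 3.77 to 8.45, 9.28 and 8.28 (1.24, adjusted p = 7.81e-07).

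INSR rose in H1975 at 10 of 15 regions and fell at 3, where 26.7% of all tested regions rose and 31.4% fell. But with the regional median removed 4 INSR regions rose and 7 fell. The other regions within 5 Mb of INSR had a median change of 0.92. Its gene sum was 0.40 higher on the log2 scale (summed test, adjusted p = 0.116) and 0.38 lower with the regional (10 Mb) median removed. The INSR region annotated as 3′ UTR, at 0.692, 0.961 and 1.2 CPM in control, had 12.9, 12.6 and 13.4 (3.73, SE 0.22, adjusted p = 9.48e-41, and 2.96 with the regional median removed). IGF1R had 8 regions higher and 9 lower of 21, from -3.58 to 1.55 on the log2 scale, and NRG1 3 higher and 4 lower of 12. The FGFR1 sum changed by -0.35 and that of FGFR4 by 0.44, close to its flanks at 0.33, and the summed test kept neither call (0.165 and 0.101). HGF at 12.8, 11 and 11.9 CPM was not called (-0.23), with its flanks at -1.09 and 0.66 with the regional median removed. PC9 AXL rose as a sum (0.40, where 35.3% of all sums were called), from 31.3, 32.5 and 27.2 to 42.3, 38.1 and 39.5, a call the summed test did not keep (0.456), and its window at chr19:41225589-41226090 had 15.4, 15.4 and 15.1 CPM (0.45, adjusted p = 0.0112).

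The combination against DTP cells asks what 3 days of AZD5153 change in persisters. If osimertinib was stopped for those 3 days, its withdrawal cannot be told apart from AZD5153. In H1975, 32 of 86 regions were called, 23 higher and 9 lower, against 21% of all regions (11.5% higher and 9.5% lower). Without DTP replicate 3 the count was 21, and the summed test called 7 (6.05% of all regions). PC9 had 12 of 54 (8 higher) against 22.4% (10.7% higher and 11.6% lower), and 4 in the summed test (8.15% of all regions). HCC2935 had 10 of 76 (8 lower) against 8.39% (2.37% higher and 6.03% lower). The HCC2935 count was 5 in the summed test (5.57% of all regions), 6 without DTP replicate 1 or 2 and 5 without combination replicate 1 or 2. HCC827 had 0 of 30 called by edgeR against 0% of all regions, with 2 at an unadjusted p under 0.05 and 1 in the summed test (3.26% of all regions).

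The MET sum moved in opposite directions in the 2 lines where it had fallen in DTP cells. H1975 rose to 262.1, 249.3 and 247.8 CPM (log2 change 0.27, adjusted p = 2.33e-08, summed 0.68), with 9 regions higher and 2 lower, against 11.5% and 9.5% of all regions. The largest fall among called H1975 regions in this comparison was also in MET, at chr7:116781010-116781511 (log2 change -1.03). The RefSeq start in H1975 reached 46.0, 45.6 and 45.8 (0.32, adjusted p = 0.000142). HCC2935 fell further to 176.5, 178.1 and 160.5 (-0.26, adjusted p = 0.0108, summed 0.842), with 5 regions lower and 1 higher, against 6.03% and 2.37% of all regions. Among the lower ones was chr7:116711041-116711542, which went to 1.11, 1.47 and 1.73 (-1.88, SE 0.3, adjusted p = 2.22e-05). The summed test thus kept neither call, and the difference between these lines was not tested.

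Other members changed at single regions, and among gene sums of the combination 36.7% of all genes were called for PC9, 48.1% for H1975, 15.3% for HCC2935 and 0% for HCC827. AXL in PC9 fell as a sum from 29.4, 23.6 and 27.1 CPM to 15.1, 18.7 and 21.2 (log2 change -0.55, adjusted p = 1.53e-05, summed 0.273), with its upstream start region (chr19:41218704-41219205) going from 5.06, 5.38 and 5.62 to 1.76, 3.19 and 1.93 (-1.22, adjusted p = 0.000318). The intergenic FGFR3 region of PC9 rose from 12.8, 12.4 and 14.3 to 26.3, 25.1 and 27.2 (0.99, SE 0.12, adjusted p = 7.6e-13, summed 0.00202), above every other PC9 group. FGFR2 in H1975 fell at its start from 8.69, 9.22 and 8.49 to 4.34, 5.24 and 4.92 (-0.86, SE 0.15, adjusted p = 2.83e-06, summed 0.022). An intronic NRG1 region of H1975 (chr8:32715122-32715623) rose from 3.55, 4.05 and 3.59 to 7.74, 10.1 and 9.33 (1.28, SE 0.16, adjusted p = 2.71e-11). In HCC2935 the IGF1R window at chr15:98852215-98852716 rose from 23.1, 19.9 and 22.2 to 27.7, 26.7 and 30.9 (0.39, adjusted p = 0.035), a call the summed test did not keep (0.45). The IGF1R window called in 3 lines went back in PC9, to 2.55, 1.92 and 3.0 (-1.08, adjusted p = 0.00144), and stayed at 6.68, 7.57 and 8.13 in H1975.

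The combination against DTP, which holds any osimertinib withdrawal as well, stood for the AZD5153 effect in persisters. Whether AZD5153 acted alike in persisters and in drug-naive cells was tested as the difference of the 2 AZD5153 effects. In H1975 it was called for 53 of 86 regions, 34 higher and 19 lower, against 42.5% of all regions (24.4% higher and 18.2% lower), and for 35 in the summed test (31%). PC9 had 9 of 54 called (4 higher) against 13.8% (7.32% higher and 6.46% lower). The PC9 count was 2 in the summed test (4.84% of all regions), 5 without control replicate 3 and 4 without DTP replicate 1. Of all gene sums, 68% were called for H1975 and 26.8% for PC9. MET in H1975 carried 16 of the higher region calls, 12 of them outside the promoter class, where 49.5% of all annotated regions of that kind were called higher. Its sum fell with AZD5153 in naive cells and rose in persisters, a difference of 1.40 on the log2 scale (adjusted p = 3.14e-52, summed 1.84e-05, and 0.75 with the regional median removed). At chr7:116737237-116737738 the naive cells went to 0.115, 0.933 and 0.408 CPM and the persisters, already at 0.343, 0.304 and 0.999, had 0.117, 0.891 and 1.1, so the difference of 4.68 there stands beside DTP levels that were already near 0. At chr7:116781010-116781511 both fell, with persisters at 14, 10.6 and 11.2 CPM with AZD5153 and naive cells near 1 (difference 4.07).

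The INSR region annotated as 3′ UTR went the other way (difference -4.14): 12.9, 12.6 and 13.4 CPM in naive cells with AZD5153 and 1.99, 2.34 and 1.71 in persisters with it. The INSR sum differed by -0.33, but by 0.54 with the regional median removed. IGF1R at chr15:98888783-98889284 fell to 1.04, 1.4 and 1.02 in naive H1975 cells (-2.04), and persisters had 6.68, 7.57 and 8.13 with it against 7.2, 6.79 and 8.29 without (difference 2.05, summed adjusted p = 2.1e-05). In PC9, the MET region at chr7:116783717-116784218 lost most of its signal with AZD5153 in naive cells, while persisters given the drug had 7.05, 7.03 and 6.0 CPM (difference 3.80, adjusted p = 1.79e-13, summed 3.08e-08). PC9 AXL rose with AZD5153 in naive cells and fell in persisters (difference -0.95, SE 0.144, adjusted p = 3.73e-09), a call the summed test did not keep (0.163). At the AXL region chr19:41223507-41224008 naive cells had 9.41, 7.61 and 7.71 and persisters with the drug 1.96, 1.49 and 1.93 (difference -1.47, adjusted p = 0.00409, summed 0.0621). The intergenic FGFR3 region of PC9 differed by 1.35 (summed 0.00441).

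**Figure D5:**
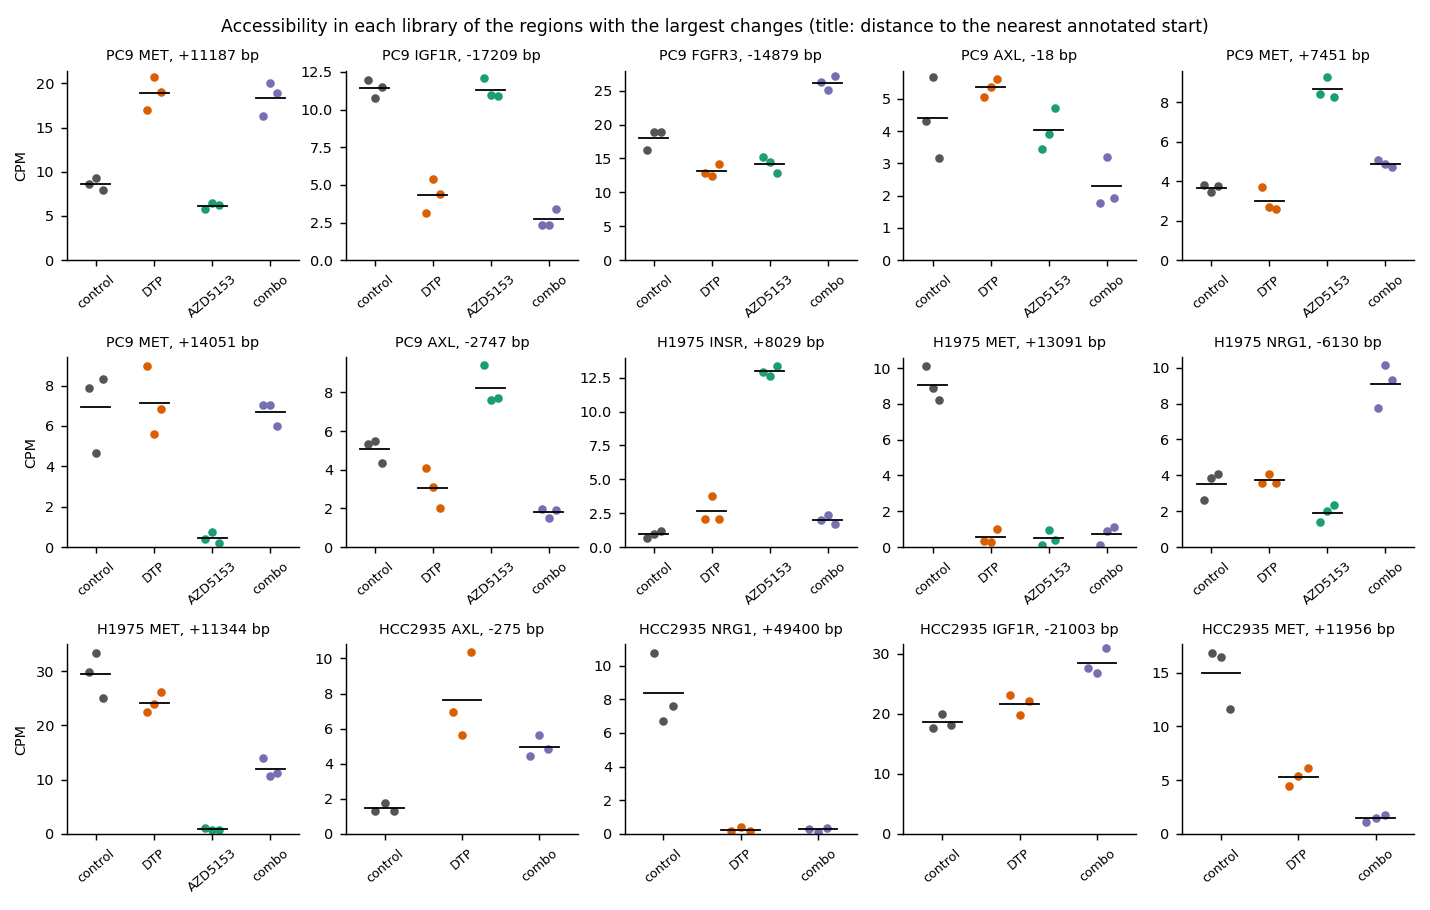
CPM (y) of each library by group (x) in 15 member regions, with 1 panel for each region and bars at the group means. Each title gives the line, the gene and the distance in bp to the nearest annotated start. The H1975 INSR panel has its AZD5153 libraries at 12.6 to 13.4 CPM and every other library at or under 3.75, and no HCC827 region met the rule for this plot.

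Overlapping windows of a member were compared across lines. There were 58 windows matched in all 4 lines and given to a member in at least 1 line. Of these, 23 differed in their DTP change between lines by the joint test, against 37.2% of the 81122 matched windows tested (30201 windows). When HCC827 was left out 27 of 62 differed, where 44208 of all 100943 windows tested did. H1975 and HCC2935 had 57 overlapping pairs of member windows, counting any overlap, so that a window can be in more than 1 pair, and in 14 pairs both windows were called in DTP cells (beside 49 and 35 called regions in these lines). PC9 had 40 such pairs with H1975, 10 of them called in both, and 39 with HCC2935, 6 of them called in both. No share over all regions was computed for these counts. In single lines 51.8% (H1975), 37.4% (HCC2935) and 31.8% (PC9) of all tested regions were called. The joint counts are therefore not read as agreement between lines at the members.

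The other genes of these pathways came from a list of 52 ligands, cofactors, other receptors and adaptors. In DTP cells 16 of 47 gene sums rose and 11 fell in HCC2935, 6 of 44 rose and 27 fell in H1975, 10 of 47 rose and 17 fell in PC9, and 1 of 43 rose in HCC827, where 49.1%, 66.7%, 42.2% and 0.844% of all gene sums were called. In the summed test 11 rose and 3 fell in HCC2935, 1 and 15 in H1975, 4 and 1 in PC9, and 3 and 2 in HCC827. Among ligands, FGF7, which activates FGFR2, rose in HCC2935 from between 0.185 and 0.263 CPM in control to between 4.59 and 5.94 in DTP, with so few control counts that no fold is given. FGF9 fell there from between 24.2 and 32.7 to between 11.3 and 14.7 (-1.13). NRG3, an ERBB4 ligand, rose in H1975 from between 1.68 and 2.21 to between 4.23 and 5.29 (1.33). Among cofactors and binding proteins, IGFBP7 rose in PC9 from between 1.83 and 2.80 to between 4.87 and 6.83 (1.27), IGFBP6 fell in PC9 (-0.87), IGFBP2 fell in H1975 from between 51.4 and 52.7 to between 19.2 and 21.6 (-1.33), and KLB, the coreceptor of FGF19, rose in HCC827 from between 2.63 and 3.99 to between 8.77 and 25.8 (2.26, adjusted p = 0.017). FGF7 in HCC2935, NRG3 in H1975, IGFBP7 in PC9 and KLB in HCC827 had 1 region each, so these sums are single windows.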

How the data were processed

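The 42 libraries were made from 4 cell lines, with 3 biological triplicates in each of 14 groups, as given by the labels. The authors deposited counts of reads per region (raw counts, hg38), with 1 table per line of all regions and 1 of regions annotated to genes, and peak lists per library that hold fold signal, −log10 p and −log10 q values as their peak caller wrote them. The peak lists were used only to count which regions had a peak. In every line each member region overlapped a peak in at least 1 list, and 31 of 54, 64 of 86, 5 of 30 and 42 of 76 did so in every list. The submitters' processing notes name BWA 0.7.17, SAMtools 1.9, deepTools 3.4, MACS2 2.2.6, featureCounts 2.0.0 and ChIPseeker 1.29.1 without their roles, and the filters used are not given in the labels.

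Counts were tested in R 4.3.3 with edgeR 4.0.16, 1 quasi-likelihood fit per line over all regions that passed filterByExpr (PC9 126506, H1975 191202, HCC827 82309 and HCC2935 154179), with TMM scaling and Benjamini-Hochberg adjustment over all regions tested. A prior count of 2 entered only the log2 CPM used for the regional medians and for the check of the replicate numbers. All 246 member regions passed the filter. CPM are counts over the TMM-scaled library total. Gene sums add the counts of a symbol's annotated regions. The joint test matched regions of the 4 lines by 50% overlap (GenomicRanges 1.54.1). Regional medians were taken over bins of 10 Mb with at least 50 regions. DESeq2 1.42.0 was an alternative. Python 3.11.15, pandas 2.3.3, numpy 2.4.6 and matplotlib 3.10.9 made the tables and plots. The fits were tested on simulated data.

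The members, the lists and the tests were chosen with earlier results of these data known. The text names, by rule, each member's region nearest a start in each line, the largest rise and fall of each line and contrast among called regions that lie above the median level and whose groups do not overlap, all gene sums, the largest rise and fall of the pathway list in each line, the gene most like each member, and matched regions called the same way in 3 or more lines. Other regions were chosen after their values were seen and are marked so. Whether the replicate numbers pair libraries was checked from the correlation of same-numbered deviations from the group means. In HCC827 these ran from 0.261 to 0.828, with 9 of 9 pairs of libraries over 0.1, and the numbers were taken to pair the samples there. The HCC827 counts of called regions given first are from the fit without that pairing. In PC9 and H1975 0 of 18 pairs were over 0.1, and in HCC2935 2 of 9. Promoter sequences are from RefSeq (GRCh38.p14), where 14 entries matched 8 of the 10 members.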

Additional observations from a re-analysis of the deposited data

Results flagged for a closer look

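Among windows matched in all 4 lines, 23 had a DTP change that differed between lines (joint edgeR test of the line-by-DTP term, adjusted over 81122 windows). A window entered when the table of any line gave it to a member, so some values are from windows that a line does not give to that gene. Such values are those of FGFR2 in PC9, of FGFR1 in HCC827, and of MET at chr7:116730552 and chr7:116737336 in PC9 and HCC827, among others. For MET the adjusted p was 2.44e-10 at chr7:116716551 (log2 change -2.14 in HCC2935 and -0.22, 0.11 and -0.16 in PC9, H1975 and HCC827), 5.36e-06 at chr7:116730552 (-2.84 in H1975 against 0.39, 0.66 and -0.53 in PC9, HCC827 and HCC2935), 5.01e-08 at chr7:116737336 and 0.000101 at chr7:116780853 (1.18, -0.22, 1.33 and 0.19 in PC9, H1975, HCC827 and HCC2935). HGF had 0.000163.

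IGF1R windows had 1.9e-07 at chr15:98896898, 0.00442 at chr15:98727486, 0.0133 at chr15:98914532 and 0.0445 at chr15:98648231, and INSR windows 0.0096 and 0.0203. AXL had 0.000304 at chr19:41225589, 0.0322 at chr19:41226282 and 0.0498 at chr19:41223507. At the last of these the log2 changes were -0.66, 0.03, 0.53 and 0.72 in PC9, H1975, HCC827 and HCC2935.

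Among FGF receptors, FGFR3 windows had 0.00186 at chr4:1798043 (1.02 in PC9, -1.01 in HCC827 and -0.84 in HCC2935), 0.00333 at chr4:1775932, 0.011 at chr4:1809821 and 0.0351 at chr4:1777913. FGFR2 had 0.0174 at its start (0.59, -0.60, 0.45 and -0.11 in PC9, H1975, HCC827 and HCC2935) and FGFR1 0.0152 at its start (0.11, -0.24, 0.08 and 1.38). NRG1 windows had 0.0001, 0.00432 and 0.0202.

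The effect of AZD5153 on gene sums differed between persisters and drug-naive cells (edgeR interaction) for AXL (-0.953) and FGFR3 (0.49) in PC9, where the summed test kept neither call (0.163 and 0.804). In H1975 it differed for MET (1.4), IGF1R (0.471), NRG1 (0.282), FGFR2 (-0.565), INSR (-0.334) and FGFR4 (-0.324), where 68% of all gene sums were called. Of these the summed test kept MET (1.84e-05) and not IGF1R (0.206), NRG1 (0.473), FGFR2 (0.22), INSR (0.457) or FGFR4 (0.494).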

How the results depend on the processing

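The counts of called regions changed with several settings. With groups added up they were 5 in PC9 and 4 in HCC827 for DTP, 4, 7, 1 and 5 in PC9, H1975, HCC827 and HCC2935 for the combination, 7 in PC9 for AZD5153, and 2 and 35 in PC9 and H1975 for the interaction. DESeq2 gave 9 in PC9 for DTP, 5, 17 and 5 in PC9, H1975 and HCC2935 for the combination, 8 in PC9 for AZD5153 and 3 for its interaction. With a mean of at least 50 counts there were 6, 27 and 9 for DTP in PC9, H1975 and HCC2935, 3 and 4 for the combination in PC9 and HCC2935, 4 and 40 for AZD5153 and 1 and 33 for the interaction in PC9 and H1975, since fewer regions were tested. With no low-count filter there were 20 and 4 for the combination in H1975 and HCC2935 and 5 for the PC9 interaction. The replicate block called 1 DTP region in HCC827, also with regional medians removed, where the main count was 0, and it moved no other count of called regions by over 1.5 times. With 80% overlap 15 windows of 41 differed between lines, where 25387 of all 63141 windows tested did.

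Gene sums called in DTP were 4 in PC9 with DESeq2 size factors or without promoter regions and 0 with groups added up. They were 3 in H1975 with groups added up, 1 in HCC827 with groups added up or with the block, and in HCC2935 5 with regional medians removed and 1 with groups added up or without promoter regions.

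Leaving out 1 library at a time gave 10 to 17 regions in PC9, 45 to 50 in H1975, 0 in HCC827 and 24 to 37 in HCC2935 for DTP. For the combination it gave 8 to 12, 21 to 32, 0 and 5 to 10, for AZD5153 11 to 17 in PC9 and 59 to 66 in H1975, and for the interaction 4 to 9 and 48 to 55. Gene sums called in DTP ran over 2 to 4, 6 to 7, 0 to 1 and 2 to 3 in PC9, H1975, HCC827 and HCC2935.

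Some gene sums changed sign, with the cause not tested. With regional medians removed, HGF in H1975 went from -0.23 to 0.66 with AZD5153 and from 0.15 to -0.78 in the interaction, INSR from 0.40 to -0.38 and from -0.33 to 0.54, and NRG1 in HCC2935 DTP cells from 0.13 to -0.35. Without its highest region, in H1975, AXL went from 0.11 to -0.52, FGFR1 from 0.08 to -0.42 and FGFR3 from 0.05 to -0.45 in the interaction, FGFR1 from -0.35 to 0.23 with AZD5153, FGFR2 from -0.47 to 0.25 in DTP and from -0.20 to 0.67 with AZD5153 (also without promoter regions), and FGFR4 from -0.03 to 0.29 in DTP (0.48 without promoter regions). Without promoter regions NRG1 went from 0.06 to -0.48 with AZD5153, and with library size alone INSR in DTP from -0.12 to 0.047. Of the other named values, 2794 alternatives kept direction and side of the threshold, 123 lost and 53 gained a call. HCC827, with the lowest totals and the widest spread, had the least power to show a difference.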

Other observations

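MST1R, the receptor of MSP, a ligand related to HGF, fell as a gene sum in DTP cells of PC9 (log2 change -0.53), H1975 (-0.61) and HCC2935 (-1.01), and was at -1.28 in HCC827 (edgeR adjusted p = 0.128). It was singled out from the pathway list after its values were seen. IGFBP7, a binding protein of insulin-like growth factors that rose in PC9 DTP cells at its 1 region, also rose in HCC2935. There it had 7 regions, whose sum went from between 5.00 and 7.63 CPM to between 39.6 and 46.8 (2.76). With AZD5153 alone 33 of the H1975 pathway sums fell and 6 rose, and in PC9 9 fell and 11 rose, where 76.1% and 35.3% of all gene sums were called. In the summed test 24 fell and 2 rose in H1975, and 1 and 0 in PC9. In the combination against DTP, 16 rose and 3 fell in H1975, 6 and 10 in PC9, 3 and 2 in HCC2935, and 0 and 0 in HCC827 by edgeR, where 48.1%, 36.7%, 15.3% and 0% of all gene sums were called. In the summed test 0 rose and 0 fell in H1975 and HCC2935, 1 and 0 in PC9, and 0 and 3 in HCC827.

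Over the 14 group means of 12635 genes with regions in all 4 lines, the gene sum most like that of MET was SLC9A5 (Pearson r = 0.960), and for AXL HBE1 (0.956), IGF1R JAK1 (0.928), INSR HBS1L (0.940), FGFR4 RPL32P3 (0.931), FGFR3 KLHL17 (0.847) and NRG1 RAB9A (0.844). The points share lines and libraries, and these values are descriptions. HGF, FGFR1 and FGFR2 did not have regions in all 4 tables.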
